A study of Mus musculus with 2 samples.

Results

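The plasma apolipoprotein genes made in liver are described here: Apoa1, Apoa2, Apoa4, Apoa5, Apob, Apoc1, Apoc2, Apoc3, Apoe and Apom, 10 genes chosen by symbol from the 24054 genes of the deposited expression table. Liver RNA was compared between WT male mice and male mice of the same age lacking Pgrmc1, an X-linked gene for a heme-binding membrane protein (genotype Pgrmc1 -/Y). All mice were 8 to 12 weeks old and are labelled C57BL/6, and the methods give C57BL/6N for the floxed line and B6.Cg-Tg(Sox2-cre)1Amc/J for the Cre line. The KO is a deletion of exons 1 and 2 in the whole body, made by crossing floxed mice with Sox2-Cre mice, so the liver was not the sole tissue affected, and the sources used here do not say whether the WT mice carried the Cre transgene. RNA from 5 mice per genotype was combined with the same mass from each (2.5 μg), which gave a single library for WT and 1 for KO. The spread between mice was therefore not measured, no difference has a replicate check, and no p-value is given.

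Apolipoproteins are the proteins that wrap plasma lipid into lipoprotein particles. Apob forms the scaffold of very low density lipoprotein (VLDL), which carries triglyceride out of the liver, and Apoa1 and Apoa2 form that of high density lipoprotein (HDL). The smaller exchangeable apolipoproteins move between particles and set how fast they are broken down: Apoc2 activates lipoprotein lipase, Apoc3 and Apoc1 slow the clearance of triglyceride-rich particles, Apoa5 promotes it, and Apoe is the ligand by which remnants are taken up. The liver makes nearly all of them, and the gut also makes Apoa1, Apoa4 and Apob.

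Levels are given as TPM, each gene's share of the transcript pool per unit of transcript length; the authors had also scaled it between libraries. Changes are log2((KO TPM + 1)/(WT TPM + 1)). The authors' second table gives for each library a mean, which is the estimated read count divided by a size factor. From it 22086692 reads on genes were estimated in KO and 29710419 in WT, and a 95% Clopper-Pearson interval of the ratio of means (log2) was computed for each gene, called its counting interval here. It belongs to the ratio of means, and a change in TPM can lie outside it. Such an interval covers counting error alone and holds no variation among mice. A gene is called expressed below where its TPM, averaged over both libraries, is 10 or more. Pgrmc1 itself was listed at 0.68 TPM (KO) against 949.49 TPM (WT), as the labels of the libraries imply. Hepatocyte markers (Alb, Ttr, Trf, Cps1 and Hnf4a) stood between 262.25 and 49729 TPM in the 2 libraries.

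The 10 genes were all abundant, and the order of their levels differed little between the genotypes. Together they made up 6.40% of the summed TPM in KO (64297 TPM) and 6.67% in WT (66343 TPM), a log2 ratio of -0.045. Apoe, Apoa2, Apoc1 and Apoa1 carried 89.0% of that sum in KO and 88.7% in WT. The WT level of Apoe was 52.7 times that of Apoa4, the lowest of the 10, and the same ratio was 72.1 in KO. Because TPM is per length, the long Apob transcript shows a different picture in reads. Apob held 0.238% of summed TPM in KO but 2.10% of all estimated reads, more reads than any other of the 10 genes, while Apoe held 1.66% of TPM and 1.15% of reads. All members had many reads, from 3410 for Apom in KO to 614030 for Apob in WT, so counting error was small for each.

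**Figure D1:**
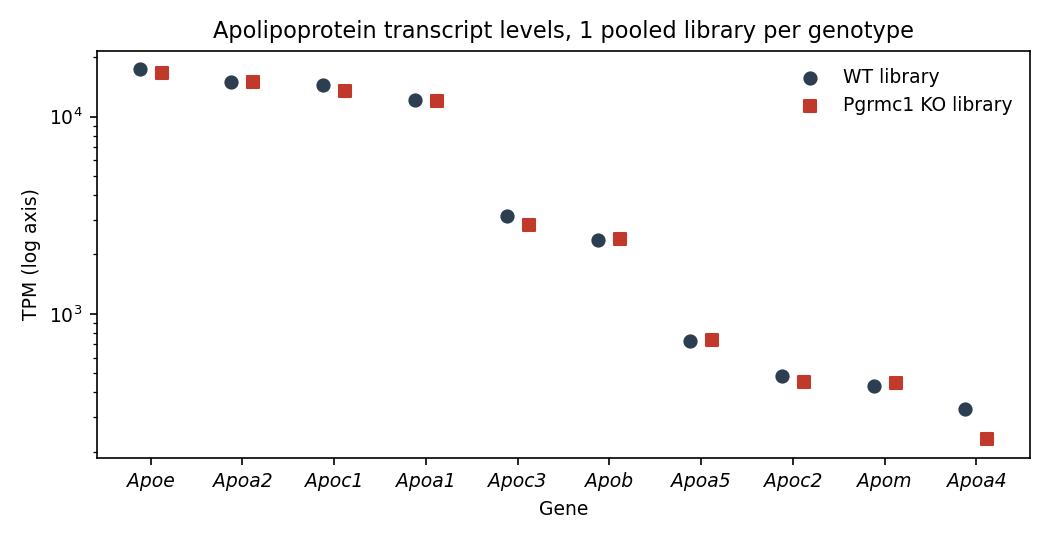
TPM (log axis) of the 10 apolipoprotein genes in the WT library (circles) and the Pgrmc1 KO library (squares), ordered by the WT level. Each point is 1 pooled library, and the symbols lie close together for every gene but Apoa4, at 230.84 TPM (KO) against 329.55 TPM (WT).

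Of the 10 genes, Apoa4 alone lay outside a 1.2-fold difference, and it was lower in KO. Thus 1 of 10 members was at least 1.2-fold lower, beside 4.36% of the 6235 expressed genes, and 0 of 10 were at least 1.2-fold higher, beside 2.85%. At 1.1-fold, Apoa4 and Apoc3 were lower (2 of 10, beside 16.4% of genes) and 0 were higher (beside 9.32%). At 1.4-fold, Apoa4 was lower (1 of 10, beside 0.69% of genes) and 0 were higher (beside 0.994%), while at 0.6 of WT or less there were 0 of 10 (beside 0.273%). The median change of the members was -0.033, and that of all expressed genes was -0.022. By sign, 6 members lay below 0 and 4 above, while 57.8% of those genes lay below 0. The shares of members past these thresholds rest on 1 or 2 genes, and nothing particular to the family is read from them.

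**Figure D2:**
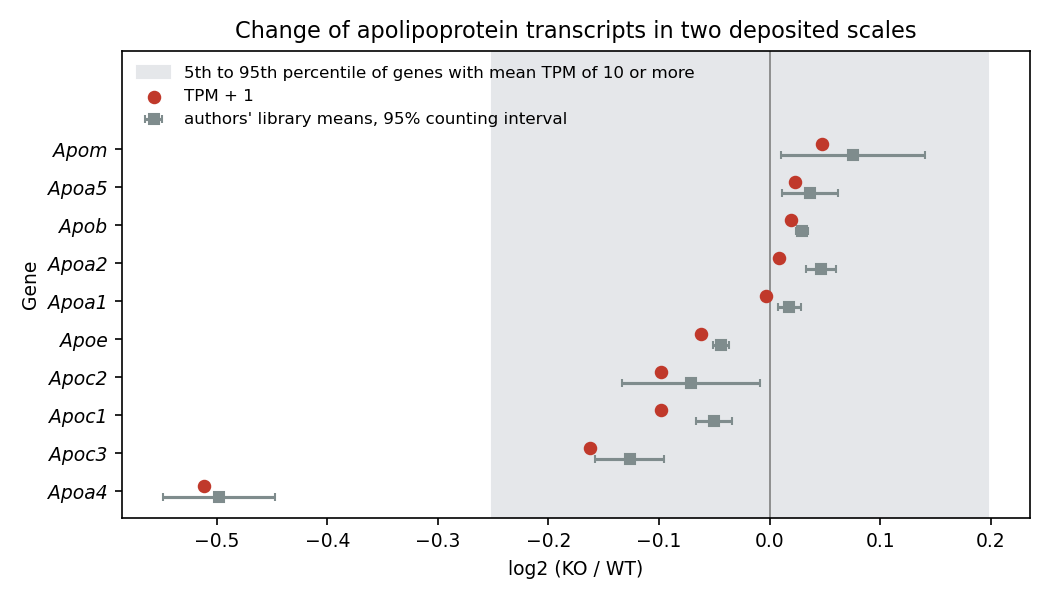
Log2 (KO/WT) of each apolipoprotein gene on the TPM + 1 scale (circles) and from the authors' library means (squares, with 95% counting intervals), over the 5th to 95th percentile of expressed genes (grey band, -0.25 to 0.20). Apoa4, at -0.51 and -0.50, is the member outside the band, and the TPM value lies to the left of the value from the means for all 10 genes.

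Apoa4, an apolipoprotein of chylomicrons and HDL that in mice is made by liver as well as gut, stood at 230.84 TPM (KO) against 329.55 TPM (WT). The change was -0.51 on the log2 scale, a level 1.43-fold lower in KO. From the authors' means the log2 ratio was -0.50, with a 95% interval of -0.55 to -0.45, on 4866 estimated reads in KO and 9280 in WT. The rank of Apoa4 among all genes, counted from the highest level, went from 356 in WT to 484 in KO. Among expressed genes, 37 of 6235 (0.593%) had a change as low or lower, and among those averaging 100 TPM or more, 12 of 1013 (1.18%). Under every scaling tried the change of Apoa4 lay between -0.53 and -0.49. Of 7 enterocyte markers, 6 (Vil1, Alpi, Lct, Cdx2, Cdx1 and Sis) were listed below 1 TPM in both libraries, with sums of 0.27 TPM (KO) against 0.24 TPM (WT). The remaining marker, the fatty acid binding protein gene Fabp2, was at 140.37 TPM (KO) against 128.09 TPM (WT). GENCODE places the genes Gm47528 and Gm10680 on the strand opposite to Apoa4, neither of which is in the TPM table. The library kit marks strand, but the strand setting used for the alignment is not given in the sources used here.

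The genes beside Apoa4 lay closer to 0. Apoa1, Apoc3, Apoa4 and Apoa5 lie within 43.3 kb of mouse chromosome 9 (RefSeq genes on GRCm38.p6, the build called mm10). Apoa1 spans 46228630 to 46230469, Apoc3 spans 46233050 to 46235636, Apoa4 spans 46240844 to 46243458, and Apoa5 spans 46268608 to 46271921. Apoc3 is transcribed from the minus strand and the other genes of the cluster from the plus strand. Apoa1, the main HDL protein, was at 12055 TPM (KO) against 12085 TPM (WT), a change of -0.0037. Apoa5, which lowers plasma triglyceride, was at 739.23 and 727.74 TPM, a change of 0.023. The start sites of Apoa1 and Apoa4 are 12.2 kb apart, and the counting intervals of their ratios of means (0.0078 to 0.028 for Apoa1, -0.55 to -0.45 for Apoa4) do not overlap. Apoa4 amounted to 2.73% of the level of Apoa1 in WT and 1.91% in KO, and Apoa5 to 6.02% and 6.13%.

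**Figure D3:**
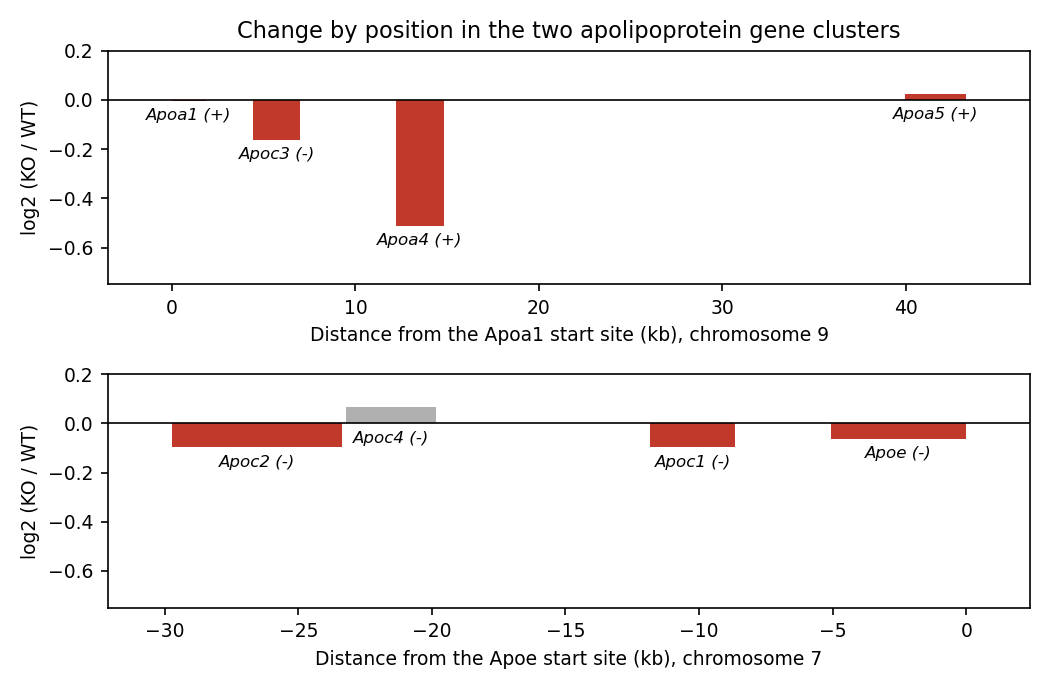
Log2 (KO/WT) on the TPM + 1 scale of each gene in the chromosome 9 cluster (upper panel, distance from the Apoa1 start site in kb) and the chromosome 7 cluster (lower panel, distance from the Apoe start site in kb), with the strand in brackets. Bar width is the gene's span, and Apoc4 (grey) is the gene between 2 members. Apoa4 reaches -0.51, whereas Apoa1 and Apoa5 in the same cluster stand at -0.0037 and 0.023.

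The bases before the start sites of the plus-strand genes of the chromosome 9 cluster are shown because 1 of these neighbours lay past 1.2-fold and the others did not. They are printed 5′ to 3′, from RefSeq promoter windows on GRCm38.p6, up to the earliest start that RefSeq or GENCODE gives: chr9:46228380-46228579 for Apoa1 (200 bases), chr9:46240594-46240695 for Apoa4 (102 bases) and chr9:46268358-46268607 for Apoa5 (250 bases), all on the plus strand. Capitals mark the TATA box (TATAAA).
Apoa1: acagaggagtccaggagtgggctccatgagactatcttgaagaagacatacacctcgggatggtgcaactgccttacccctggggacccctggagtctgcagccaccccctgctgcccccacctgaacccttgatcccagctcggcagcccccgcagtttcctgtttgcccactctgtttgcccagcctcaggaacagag
Apoa4: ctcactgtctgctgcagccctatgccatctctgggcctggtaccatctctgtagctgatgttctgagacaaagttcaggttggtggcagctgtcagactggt
Apoa5: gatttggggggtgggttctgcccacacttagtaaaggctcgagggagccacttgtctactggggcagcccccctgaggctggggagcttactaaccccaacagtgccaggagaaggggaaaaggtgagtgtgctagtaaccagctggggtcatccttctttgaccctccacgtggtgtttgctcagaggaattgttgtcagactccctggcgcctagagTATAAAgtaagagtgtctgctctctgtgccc

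A window of 250 bases before a RefSeq start was matched for 8 of the 10 members, some with several starts. Motifs were searched on both strands. The 8 members have 12 windows, and a member is counted where any of its windows holds a match. Shares of all windows count each window alone, so the 2 kinds of share are unlike. TATAAA was found for Apoa2, Apoa5, Apob and Apoe (4 of 8 members), and in 12.4% of all 32851 such windows. In Apoa5 it lay 31 to 26 bases before a start, and 56 to 51 before another. For Apob (60 to 55), Apoe (96 to 91, as given) and Apoa2 (212 to 207), the distance is to a later RefSeq start inside the gene. These distances are not to the gene starts given elsewhere in the text, and they are not compared with those of Apoa5. The hexamer AGGTCA, the core that many nuclear receptors bind, was found for Apoa2 and Apoc2 and in 4607 of all windows. A direct repeat of it (AGGTCA, any 1 base, and AGGTCA again, a form bound by HNF4A), its extended form TAGGTCA (bound by the REV-ERB receptors) and the C/EBP motif TTGCGCAA were found for 0 of 8 members, and in 0.0335%, 2.23% and 0.164% of all windows. Since TAGGTCA and the direct repeat contain AGGTCA, these matches overlap. Only these exact letters were searched, so variant forms of a site were missed. With shares this low among all windows, 0 of 8 members is not read as a result. For Apoa1 and Apoa4 the searched window runs past the earlier start that GENCODE gives. Windows before later RefSeq starts also reach into the gene, as in Apob, Apoe and Apoa2 above and in Apoa5 (46268383 to 46268632, past 46268608). A match is a run of letters in this window and not a measured binding site.

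The C apolipoproteins ride on VLDL and HDL and tune lipolysis. Of the 3 among the 10 genes, 0 reached 1.2-fold, and all had values below 0, whereas Apoc4, a further C apolipoprotein, had a value above 0. Apoc3, an inhibitor of lipoprotein lipase and of remnant uptake, was at 2809.71 TPM (KO) against 3144.83 TPM (WT), a change of -0.16 or a level 1.12-fold lower. Its ratio of means was -0.13 (95% interval -0.16 to -0.095). Of expressed genes, 12.3% had a change as low or lower, so a difference of this size is common in these libraries. Apoc1, which inhibits lipid transfer and lipoprotein uptake, was at 13548 TPM (KO) against 14501 TPM (WT), a change of -0.098. Its ratio of means was closer to 0, at -0.050 (counting interval -0.067 to -0.034). Apoc2, the activator of lipoprotein lipase, was at 452.32 and 484.15 TPM, also a change of -0.098, and its ratio of means was -0.071 (counting interval -0.13 to -0.0086). The ratio of Apoc3 to Apoc2, the inhibitor to the activator, was 6.21 in KO and 6.50 in WT. The summed level of the 3 genes was 16810 TPM (KO) against 18130 TPM (WT), a log2 ratio of -0.11.

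Apoc4, a C apolipoprotein outside the 10 that lies between Apoc1 and Apoc2, stood on the other side of 0. It was at 1674.09 TPM (KO) against 1599.29 TPM (WT), a change of 0.066, and its ratio of means was 0.10 (counting interval 0.062 to 0.15). The chromosome 7 cluster holds Apoe (19696244 to 19701310), Apoc1 (19689480 to 19692659), Apoc4 (19678084 to 19681460) and Apoc2 (19671579 to 19677941), all on the minus strand within 29.7 kb. Its changes ran from -0.098 to 0.066, and its summed level with Apoc4 had a log2 ratio of -0.072. Of the 100-base windows of the longest Apoc2 transcript, 87.3% are also found in the GENCODE gene Gm44805, which spans Apoc4 and Apoc2 and is not in the TPM table. The other 9 members share 0 of their windows with another gene.

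Apoe, the ligand of remnant receptors and the most abundant of the 10 transcripts, was at 16643 TPM (KO) against 17381 TPM (WT). The change was -0.063 in TPM and -0.044 as the ratio of means (counting interval -0.051 to -0.037). Hepatocyte markers lay below 0 for 4 of 5 genes, with a median change of -0.079 and a log2 ratio of summed TPM of -0.063. The wider list of abundant secreted liver proteins, which also holds Alb, Ttr and Trf, lay above 0 for 10 of 16 genes, with a median of 0.019. The part of hepatocyte RNA in the values of Apoe and the C apolipoproteins was not tested. Macrophages also make Apoe, and in liver these are the Kupffer cells. Kupffer cell markers lay above 0 for 8 of 9 genes (Clec4f, Vsig4, Cd5l, Emr1, Csf1r, Timd4, Folr2 and Marco, but not Cd68), and their summed level was 244.89 TPM (KO) against 217.48 TPM (WT). Their part in the level of Apoe was not tested. In pooled tissue RNA, fewer cells of a type and less RNA per cell cannot be told apart.

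The scaffolds of the particles were nearly the same in the 2 libraries. Apob (chromosome 12, 7977629 to 8016839) was at 2392.81 TPM (KO) against 2361.55 TPM (WT), a change of 0.019. Its ratio of means was 0.029, and the counting interval of 0.023 to 0.034 is the narrowest of the 10, since Apob has the most reads. Apoa2 (chromosome 1, 171221564 to 171226379), the second HDL protein, was at 14981 TPM (KO) against 14897 TPM (WT), a change of 0.0081. Apom (chromosome 17, 35128997 to 35131801), the HDL carrier of sphingosine 1-phosphate, was at 445.08 and 430.68 TPM, a change of 0.047, and its ratio of means was 0.075 (counting interval 0.010 to 0.14). These 3 genes and Apoa5 were the members above 0 in TPM. The ratio of Apoa1 to Apob was 5.04 in KO and 5.12 in WT, and that of Apoe to Apob was 6.96 and 7.36. Counting intervals lay below 0 for 5 members (Apoa4, Apoc3, Apoc1, Apoc2 and Apoe). They lay above 0 for 5 (Apoa1, Apoa2, Apoa5, Apob and Apom), although the change of Apoa1 in TPM was -0.0037. With this many reads, a difference of a few percent is enough to place an interval off 0. The share of all genes with such intervals is not given here, so nothing about the members is read from this split. No member's difference but that of Apoa4 reached 1.2-fold, and without replicates a difference of a few percent between pools has no measured error.

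Values of short transcripts differed between the deposited tables. The log2 KO/WT of TPM was lower than that of the authors' means for all 10 members, by 0.0099 for Apob, the longest at 13934 bases, and by 0.048 for Apoc1, among the shortest at 532 bases. The same gap was found across all expressed genes with 500 or more estimated reads in each library. Its median was -0.040 for 47 genes with a longest coding transcript of up to 600 bases, -0.026 for 162 genes of over 600 and up to 1000 bases, and -0.011 for 1631 genes over 4000 bases. For Apoc1 the gap is about as large as the change itself in the means (-0.050), while for Apoa4 it is -0.016. Changes in TPM were also taken relative to the median change of expressed genes in the same length class, here with no minimum of reads. They were -0.50 for Apoa4, -0.16 for Apoc3, -0.097 for Apoc1, -0.093 for Apoc2, -0.049 for Apoe, and 0.0092 to 0.061 for the other 5.

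**Figure D4:**
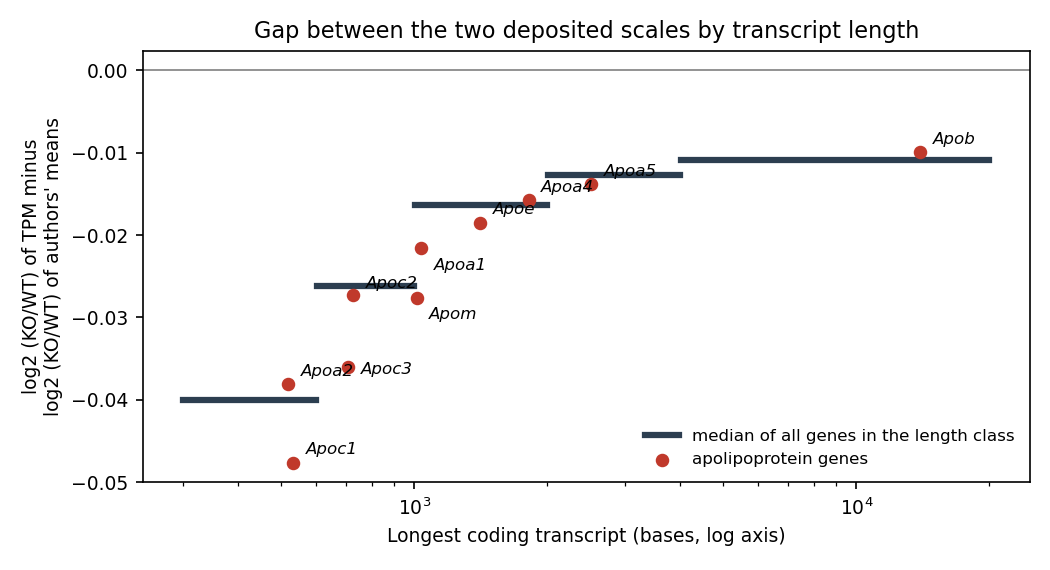
Log2 (KO/WT) of TPM minus log2 (KO/WT) of the authors' means against the length of the longest coding transcript (log axis), for the 10 members (points). Bars are medians in 5 length classes, over expressed genes with 500 or more estimated reads in each library. The gap runs from -0.048 for Apoc1 to -0.0099 for Apob, and the class medians run from -0.040 to -0.011.

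Other genes of lipoprotein handling were taken from 7 lists with 92 genes in the table, 84 of which were expressed. Of these 84, 11 were at least 1.2-fold lower in KO (13.1%) and 1 was at least 1.2-fold higher (1.19%), beside 4.36% and 2.85% of all genes. Their median change was -0.035, close to the -0.022 of all genes. The list of 26 transcription factor genes held 4 of the 11 lower genes and the 1 higher gene. The lists were chosen with earlier results of these data known, so nothing is read from these shares.

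The genes of VLDL assembly were mostly near 0. Mttp, which loads lipid onto Apob, was at 167.21 TPM (KO) against 176.49 TPM (WT), a change of -0.077. Of 17 genes, 2 were at least 1.2-fold lower and 0 higher, with a median of -0.063. The 2 were Sec24d (-0.49), a subunit of the coat of vesicles leaving the endoplasmic reticulum, and Sar1a (-0.32), a small GTPase of that coat. Sar1b, the GTPase needed for the export of such particles, stood at -0.14, and Tm6sf2 was highest at 0.069. The 4 genes of Apob mRNA editing, the step that makes the short form of Apob, ran from -0.10 for Rbm47 to 0.052 for A1cf, with the editing enzyme Apobec1 at 0.038.

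Of 7 genes of lipolysis and its inhibitors, 2 were at least 1.2-fold lower, with a median of -0.16. Angptl8, an insulin-induced inhibitor of lipoprotein lipase listed under its older symbol Gm6484, was at 28.32 TPM (KO) against 76.34 TPM (WT), a change of -1.40 (ratio of means -1.41, counting interval -1.61 to -1.22). Lpl, lipoprotein lipase itself, was at 16.91 and 22.84 TPM, a change of -0.41 (ratio of means -0.42, counting interval -0.54 to -0.31). Lmf1 was highest at 0.048. Of 10 genes of HDL assembly and remodelling, 2 were lower: Pltp (-0.30), which transfers phospholipid to HDL, and Lipg (-0.27), endothelial lipase. Endothelial markers lay below 0 for 5 of 5 genes, with sums of 120.62 TPM (KO) against 135.0 TPM (WT), and their part in these values was not tested. Abca1, which loads lipid onto Apoa1, stood at 0.030, Lcat, which esterifies HDL cholesterol, at 0.063, and Bmp1, which cleaves the Apoa1 precursor, was highest at 0.20. Of 11 receptors and uptake genes, 0 passed 1.2-fold in either direction, and the highest was Lsr, a receptor for triglyceride-rich particles, at 0.14.

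**Figure D5:**
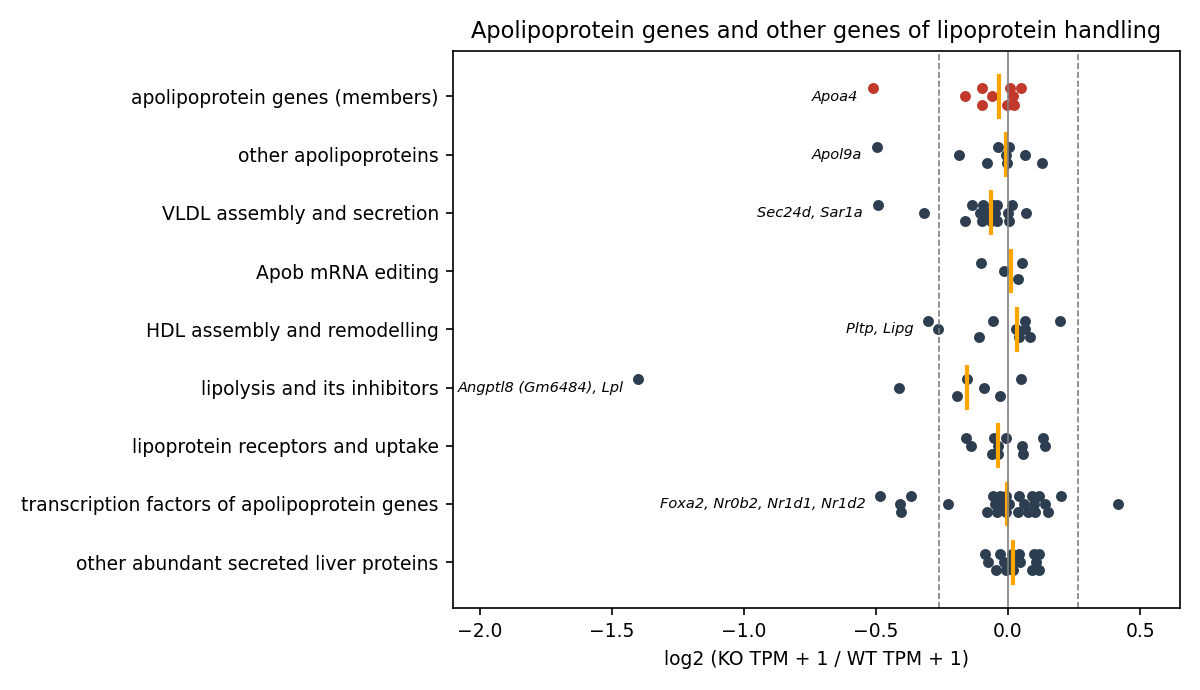
Log2 change on the TPM + 1 scale of each expressed gene, for the 10 members (red), the 7 lists of lipoprotein handling and other abundant secreted liver proteins. Orange lines are list medians and dashed lines mark 1.2-fold. Genes at least 1.2-fold lower are named, down to -1.40 for Angptl8.

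Of 26 transcription factor genes known to act on apolipoprotein genes, 4 were at least 1.2-fold lower and 1 higher, with a median of -0.0024. The shares of all expressed genes were 4.36% lower and 2.85% higher. Foxa2 (-0.48), a hepatocyte pioneer factor, Nr0b2 (-0.41), the corepressor induced by bile acids, and Nr1d1 (-0.40) and Nr1d2 (-0.37), the REV-ERB repressors of the clock, were lower. The main activator of the family, Hnf4a, stood at -0.079, Creb3l3, an activator of Apoa4 among others, at 0.0017, and Ppara at -0.049. Whether any of these moves with an apolipoprotein gene cannot be read from 2 libraries.

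Of 9 other expressed apolipoprotein genes, 1 was at least 1.2-fold lower, Apol9a (22.72 TPM (KO) against 32.45 TPM (WT), a change of -0.50). Its neighbour in name Apol9b, a close copy with which reads can be shared, stood at -0.19, and Apon was highest at 0.13. The secreted proteins Apof and Apoh stood at 0.0053 and -0.0061. Other abundant secreted liver proteins, such as Alb, Ttr and Ambp, ran from -0.087 for Ttr to 0.12 for Vtn over 16 genes, with 0 past 1.2-fold and a median of 0.019. The members other than Apoa4 lay between -0.16 and 0.047.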

How the data were processed

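Total RNA of snap-frozen liver was pooled by genotype and sequenced from a stranded total RNA library. The authors aligned paired reads to mm10 with RSEM 1.2.09 (with CASAVA 1.8.2 and Bowtie in the submitters' processing notes) and deposited a table of TPM, as the posterior mean of each gene. Since the totals are 1005325 (KO) and 994702 (WT) rather than equal, the deposited TPM had been scaled between libraries. The authors' second table, from EBSeq, holds for 16318 genes the deposited mean signal of each library, which is expected reads divided by a size factor, besides posterior probabilities and fold changes that were not used. Its columns are headed by condition number and were assigned to KO and WT by the order in the table's title and the headings of the study's supplementary table.

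The value of 1 read was taken as the most frequent low mean (1.16 in KO, 0.860 in WT). Only 78.4% (KO) and 75.0% (WT) of values then came within 0.02 of a whole read, too few for a test on counts. Intervals are Clopper-Pearson at 95%. With 1 library per genotype there was no test, and the 1.2-fold threshold is a description. Lengths, strands and shared 100-base windows came from GENCODE M21, and gene coordinates and promoter windows from RefSeq on GRCm38.p6. Symbols missing from the table were matched through RefSeq synonyms, for 4 list genes.

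The members and lists were chosen with earlier results of these data known. Named were Pgrmc1, all members, listed genes past 1.2-fold, the highest and lowest of each list, and Apoc4, except list genes that are not reported here, which still count in their lists; any other listed gene was named for its role after its values were seen. The calls and intervals were tested on simulated data with independent Poisson counts and no variation among mice. All changes planted there were larger than 1.2-fold. That simulation checks the computation and cannot measure the error between pools. Alternatives were a pseudocount of 0.1 TPM in place of 1, the authors' means, centring, 2 rescalings, other fold thresholds, other filters on low values, sums without each member and, added after the data were seen, the median of the length class and a threshold of 1.4-fold lower. Computation used scipy 1.17.1, pandas 2.3.3 and numpy 2.4.6, and plots matplotlib 3.10.9, under Python 3.11.15.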

Additional observations from a re-analysis of the deposited data

How the results depend on the processing

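No paired analysis was possible because only 1 WT and 1 KO library exist here, and no library could be left out. Apoa4 was the sole member at least 1.2-fold lower, and 0 members were higher, with 0.1 TPM added, with the authors' means, after centring on the median gene and after both rescalings. With the threshold at 0.6 of WT the number lower was 0, at 1.1-fold it was 2, and at 1.4-fold, added after the data were seen, it was 1. The median change of the members was -0.011 after centring, -0.013 with the authors' means, -0.020 relative to length class and -0.048 after rescaling to the same sum. The authors' means are scaled reads and not per length, so in their sum Apob weighs most. The log2 ratio of that sum was 0.0012, which is not the same measure as summed TPM. The log2 ratio of summed TPM was -0.023 after centring and -0.061 after rescaling to the same sum. It was -0.055 without Apoa1, -0.061 without Apoa2, -0.031 without Apoc1 and -0.039 without Apoe. The sign of Apoa1 turned with the authors' means (0.018), after centring (0.019) and relative to its length class (0.010), and that of Apoa2 after rescaling to the same sum (-0.0072). The causes were not tested. Of the other values of single members under an alternative, 41 moved by no more than their counting error and 15 moved by more without changing sign. The number of lipoprotein handling genes at least 1.2-fold lower was 10 after centring, 13 with the lower or no filter on low values, and 11 otherwise, and 1 was higher under each of these.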
